A study of Mus musculus with 8 samples.

Results

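The 10 genes described here code for ligands of the tumor necrosis factor (TNF) superfamily: Tnf, Lta, Ltb, Cd40lg, Fasl, Tnfsf4, Tnfsf8, Tnfsf10, Tnfsf11, and Tnfsf14. They were chosen by name, with earlier results of these data known, from the 29924 gene names on the array. Each of the 10 is represented by 1 probe with 4 spots per array, so no other probe of the same gene was at hand as a check. All mice were of the Foxp3 reporter strain B6.Cg-Foxp3<tm1Mal>, of mixed sex and aged 8 to 14 weeks, and had received KLH with alum s.c., so the naïve cells also come from immunized animals. CD4 T cells were sorted from peripheral lymph nodes (pLN) at d12 or d25 p.i. as naïve CD4 T cells, here called naïve T (Foxp3-, PD1lo GL7-), TFH (Foxp3-, PD1hi GL7+), Treg (Foxp3+, PD1lo GL7-), and TFR cells (Foxp3+, PD1hi, GL7+ or GL7-). Each cell type at each day is 1 array of 25 ng RNA from, per the labels, a pool of 8 to 15 mice, which gives 8 arrays and n = 2 for a cell type. The study's section on RNA isolation gives the same pool size, and its statistics section a smaller one. The latter also gives more fractions, at d12 and at d25, than the arrays analysed here. Levels are normalized intensities in relative units (RU), with a floor of 20 RU.

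Ligands of this superfamily are mostly trimeric membrane proteins. Some are also shed or secreted, and they signal through receptors of the TNF receptor superfamily toward NF-kappaB, MAP kinases, or caspases. In lymph nodes, LTα and LTβ together form a ligand of the LTβ receptor, which maintains follicular dendritic cells and lymphoid structure, and CD40L on helper T cells is the central contact signal for germinal center B cells. FasL and TRAIL can kill cells that carry their receptors, RANKL is known for its role in lymph node formation and osteoclast differentiation, and OX40L, CD30L, and LIGHT are regarded as costimulatory ligands.

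Among the 10 ligands, Tnfsf11 and Tnfsf14 showed the largest follicular changes. Both were higher in TFH than in naïve T cells, by 22.5-fold and 18.3-fold, and higher in TFR than in Treg cells, by 3.36-fold and 5.70-fold. Tnfsf8 was higher in TFH and lower in TFR cells than in the respective nonfollicular cells, and Tnfsf10 moved the opposite way. Tnf was higher in TFH cells without a detectable difference between TFR and Treg cells, and Lta was high in both Foxp3+ populations. Cd40lg was above background only in Foxp3- cells, Tnfsf4 on no array, and no cell type difference was called for Ltb.

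Differences are given on the log2 scale with their SE from a limma fit over all 8 arrays in which cell type and day are additive. The threshold for a call was an adjusted p below 0.05 (Benjamini-Hochberg) over 15764 genes, namely those whose probe was well above background in at least 1 cell type at both days. Of the 10 ligands, 9 passed this filter and 8 were above background on all arrays. The p-values rest, for each gene, on 1 estimate of the spread that all 8 arrays share. It is the spread left after cell type and day were fitted, moderated by that of all genes. Each cell type has 1 pool per day, so the spread between pools of the same day was not measured. Calls were recomputed under 19 alternative settings, 8 of which leave out 1 array each.

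The libraries matched their labels. Foxp3 was between 37266 and 49262 RU in Treg and TFR cells and at most 358 RU in the others, and Cxcr5, the homing receptor of follicular cells, was between 182426 and 237465 RU in TFH, 35322 and 35810 RU in TFR, and at most 4384 RU in the other cells. The d25 TFH array had the most B cell marker signal, with 7 of 8 markers above background and a sum of 16043 RU, against 3 to 5 markers and sums of 5483 to 10062 RU on the other 7 arrays. Ms4a1, the gene of CD20, read 2738 RU there and at most 1142 RU elsewhere, while Pax5 was at the floor on all arrays. The sums of the other marker lists were 1261 to 15470 RU for antibody-secreting cells, with the highest on the d12 naïve array, 19131 to 33066 RU for myeloid, 47447 to 83009 RU for dendritic, 3028 to 7780 RU for CD8 T and NK, 8517 to 16238 RU for innate lymphoid, and 1219 to 3811 RU for stromal cells. Siglech alone supplied most of the dendritic sum (47255 to 82579 RU), while Xcr1 and Cd209a were above background on no array. Itgam supplied most of the myeloid sum (13020 to 28504 RU). These sums are therefore not amounts of such cells. All d12 arrays shared 1 slide, and the d25 arrays lay on a slide with naïve T and TFH cells and another with Treg and TFR cells, so that day and slide cannot be told apart, and at d25 the comparison of Foxp3+ with Foxp3- cells crosses slides.

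**Figure D1:**
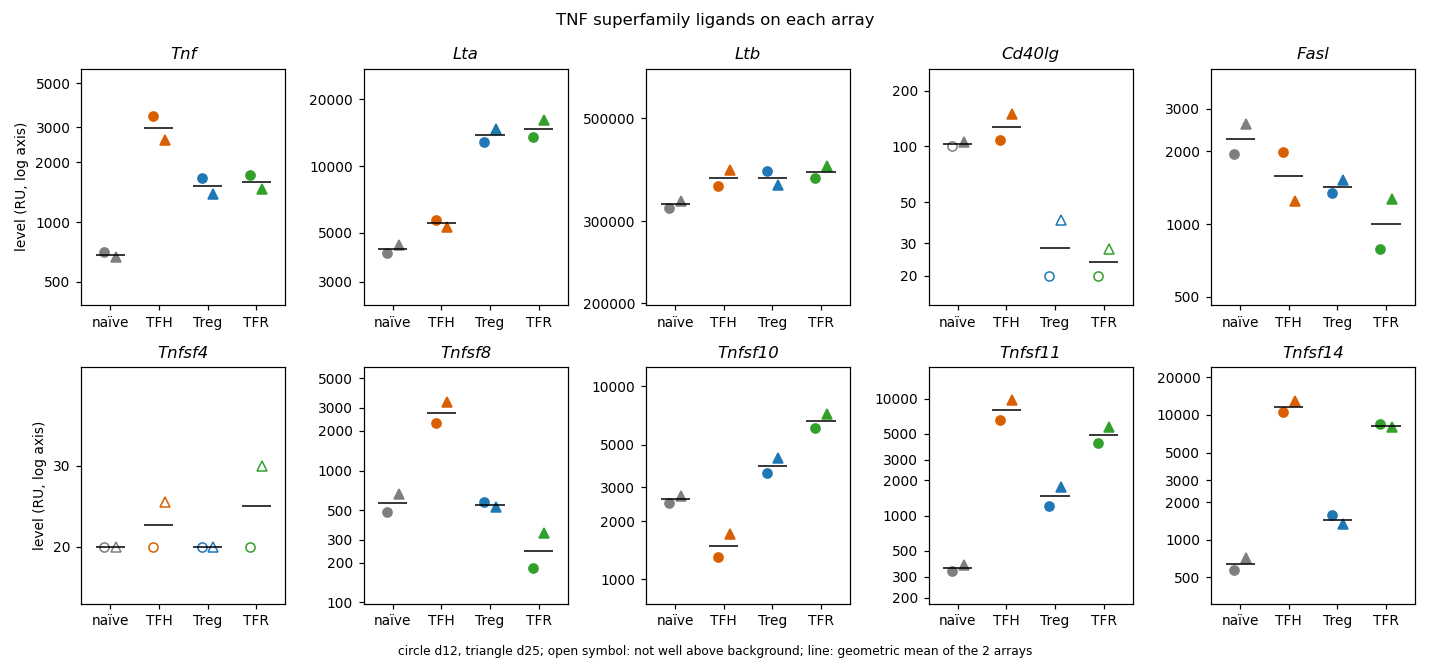
Level of each of the 10 ligands (y axis, RU on a log axis that differs between panels) in naïve T, TFH, Treg, and TFR cells (x axis) on the d12 arrays (circles) and d25 arrays (triangles), with a line at the geometric mean of the 2 arrays and open symbols where the probe was not well above background. Both TFH arrays lie highest for Tnfsf8, Tnfsf11, and Tnfsf14, both TFR arrays lie highest for Tnfsf10, and Cd40lg has only open symbols in Treg and TFR cells.

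Promoter sequences are shown for the 5 ligands whose change from the nonfollicular to the follicular cell differed between Foxp3- and Foxp3+ cells, so that those moving together (Tnfsf11 and Tnfsf14) and those moving apart (Tnfsf8 and Tnfsf10) can be read side by side. RefSeq windows of 300 bases (GRCm38.p6) were at hand for 8 of the 10 ligands, not for Cd40lg and Tnfsf4, and the 250 bases before the annotated start are printed 5′ to 3′ on the strand of the gene. Capitals mark matches to the NFAT core GGAAAA, the AP-1 motif TGANTCA, or the NF-kappaB consensus, searched on both strands. The regions are chr17:35202008-35202257 (minus strand) for Tnf, chr4:63861285-63861534 (minus) for Tnfsf8, chr3:27316827-27317076 (plus) for Tnfsf10, chr14:78308044-78308293 (minus) for Tnfsf11, and chr17:57194182-57194431 (minus) for Tnfsf14.
Tnf: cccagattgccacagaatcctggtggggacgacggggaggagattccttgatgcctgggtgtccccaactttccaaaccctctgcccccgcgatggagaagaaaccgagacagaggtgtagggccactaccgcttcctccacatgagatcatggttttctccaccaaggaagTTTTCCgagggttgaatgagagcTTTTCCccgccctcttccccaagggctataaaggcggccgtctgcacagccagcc
Tnfsf8: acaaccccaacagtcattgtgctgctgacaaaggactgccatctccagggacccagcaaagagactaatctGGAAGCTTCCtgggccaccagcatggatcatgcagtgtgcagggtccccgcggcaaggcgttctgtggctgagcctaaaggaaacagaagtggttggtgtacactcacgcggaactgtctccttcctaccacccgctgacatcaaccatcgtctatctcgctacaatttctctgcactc
Tnfsf10: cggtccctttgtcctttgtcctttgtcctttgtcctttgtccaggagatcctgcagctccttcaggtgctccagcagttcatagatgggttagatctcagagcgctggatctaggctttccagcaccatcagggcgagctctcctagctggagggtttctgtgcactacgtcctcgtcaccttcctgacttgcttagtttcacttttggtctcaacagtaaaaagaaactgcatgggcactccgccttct
Tnfsf11: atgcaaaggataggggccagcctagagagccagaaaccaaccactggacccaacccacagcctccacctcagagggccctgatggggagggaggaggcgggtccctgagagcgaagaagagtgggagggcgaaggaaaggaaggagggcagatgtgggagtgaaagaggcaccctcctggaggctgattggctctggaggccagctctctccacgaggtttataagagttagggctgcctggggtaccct
Tnfsf14: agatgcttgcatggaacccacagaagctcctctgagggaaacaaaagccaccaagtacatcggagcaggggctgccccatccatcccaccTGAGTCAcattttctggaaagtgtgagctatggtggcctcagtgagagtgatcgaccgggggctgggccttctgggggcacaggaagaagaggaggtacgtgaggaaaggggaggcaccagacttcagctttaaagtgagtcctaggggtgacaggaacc
The NFAT core was found in the windows of Tnf, with 2 matches, and Fasl, that is in 2 of 8 windows against 23.4% of the 32851 windows of all genes. The AP-1 motif occurred in the window of Tnfsf14 alone, between positions -160 and -154 from the start, against 7.8% of all windows, and the NF-kappaB consensus in those of Lta, Ltb, Fasl, and Tnfsf8, against 11.2%. None of the 3 motifs occurred in the windows of Tnfsf10 and Tnfsf11, which says only that these letters are not in these windows. The windows of Tnfsf11 and Tnfsf14, the pair of ligands whose log2 levels correlated most closely over the arrays, shared none of the 3 motifs.

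The first group are the genes of TNF and the lymphotoxins, which neighbor each other on chromosome 17. Their probes lie at chr17:35336795-35336854 (Tnf), chr17:35340275-35340334 (Lta), and chr17:35333097-35333156 (Ltb) in build NCBI37, as do the probe positions given below for the other ligands. Tnf, the soluble and membrane-bound inflammatory cytokine, read 704 RU at d12 and 665 RU at d25 in naïve T, 3407 and 2573 RU in TFH, 1657 and 1382 RU in Treg, and 1733 and 1471 RU in TFR cells. The TFH arrays were highest, the naïve arrays lowest, and the Treg and TFR arrays overlapped in between. Tnf was higher in TFH than in naïve T cells by 2.11 ± 0.11 (4.33-fold, adjusted p = 0.000293) and in Treg than in naïve T cells by 1.14 ± 0.11 (2.21-fold, adjusted p = 0.00587). TFR and Treg cells differed by 0.08 ± 0.11 (95% interval -0.20 to 0.35, adjusted p = 0.6), and TFR cells were 1.85-fold lower than TFH cells (-0.89 ± 0.11, adjusted p = 0.00705). The last call was lost without the d12 or the d25 TFR array (adjusted p = 0.0695 and 0.0625), and that of Treg against naïve T cells without the d12 or the d25 Treg array (0.0637 and 0.0591) and with slide in place of day (0.05, above the threshold before rounding).

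Lta, which codes for the soluble lymphotoxin and the α chain of the membrane-bound form, had a different order. It read 4029 RU at d12 and 4406 RU at d25 in naïve T, 5697 and 5313 RU in TFH, 12833 and 14729 RU in Treg, and 13535 and 16098 RU in TFR cells. Thus, all Foxp3+ arrays were above all Foxp3- arrays. Lta was higher in Treg than in naïve T cells by 1.71 ± 0.12 (3.26-fold, adjusted p = 0.00262) and in TFR than in TFH cells by 1.42 ± 0.12 (2.68-fold, adjusted p = 0.00255), calls that held under the 19 alternatives. TFR and Treg cells differed by 0.10 ± 0.12 (-0.20 to 0.40, adjusted p = 0.516). The rise from naïve T to TFH cells was 0.38 ± 0.12 (1.31-fold, adjusted p = 0.0468), and its call was lost under 14 of the 19 alternatives, among them leaving out any array other than that of TFH cells at d25 (0.24 to 0.39, adjusted p = 0.0761 to 0.175) and dropping the day term (adjusted p = 0.0826).

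Ltb codes for the chain that anchors lymphotoxin in the membrane. It read 320205 RU at d12 and 331871 RU at d25 in naïve T, 356201 and 387418 RU in TFH, 384405 and 359061 RU in Treg, and 370868 and 395089 RU in TFR cells, so the naïve arrays were lowest and the other 3 cell types overlapped. None of the 6 pairwise differences was called by limma, with differences of 0 to 0.23 (adjusted p = 0.0946 or higher), and 0 had an unadjusted p below 0.05. With an intensity trend in the variance model, however, the difference of TFR to naïve T cells (0.23) was called higher (adjusted p = 0.0258). The direction depended on the scaling: without quantile normalization, Ltb was lower in TFH than in naïve T cells by 0.64 on the log2 scale (adjusted p = 0.00471), lower in TFR than in naïve T cells by 0.48 (adjusted p = 0.0101), and lower in TFH than in Treg cells by 0.40 (adjusted p = 0.0258). No probe was saturated on any array.

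**Figure D2:**
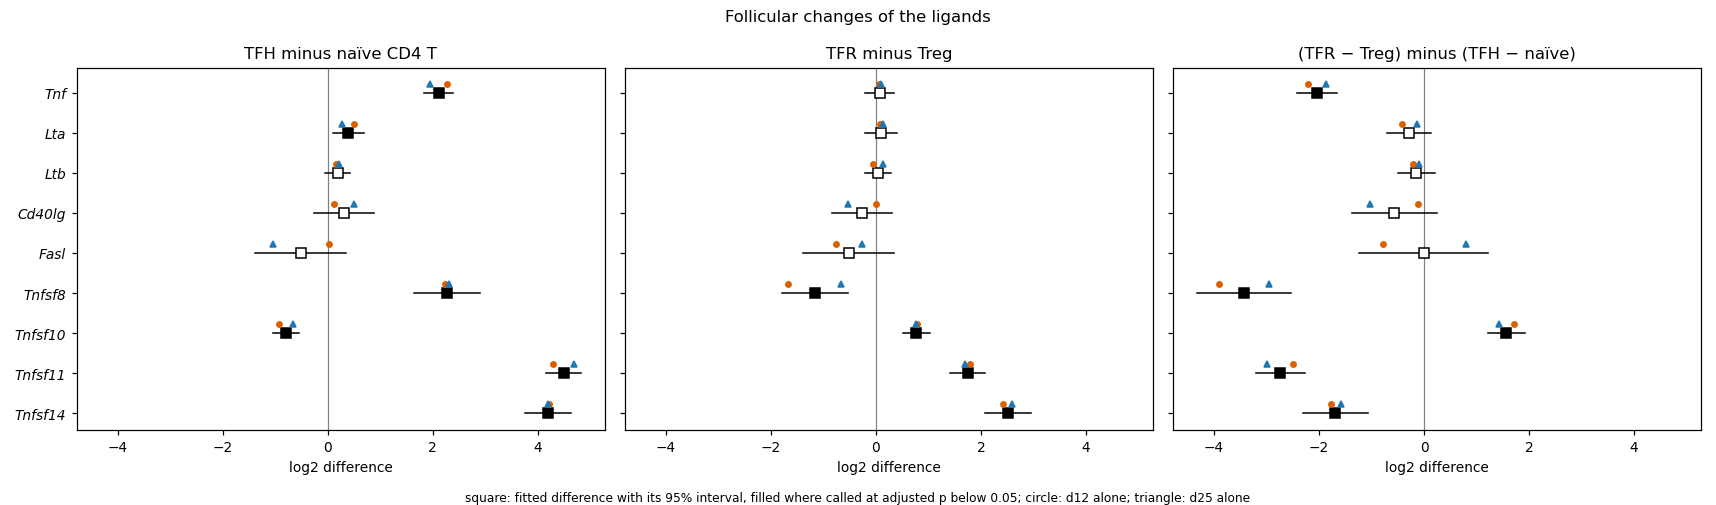
Log2 difference (x axis) of the 9 ligands tested (y axis) between TFH and naïve T cells, between TFR and Treg cells, and between these 2 changes, as squares with the 95% interval (filled where called) and as values of d12 (circles) and d25 (triangles) alone. Tnfsf11 and Tnfsf14 are called right of 0 in the first 2 panels, Tnf is called in the first of these only, and Tnfsf8 and Tnfsf10 have opposite signs in the first 2 panels.

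Tnfsf11 (probe at chr14:78677444-78677503) codes for RANKL, the ligand of RANK. It read 336 RU at d12 and 380 RU at d25 in naïve T, 6575 and 9800 RU in TFH, 1207 and 1773 RU in Treg, and 4213 and 5722 RU in TFR cells. No 2 cell types overlapped, in the order TFH, TFR, Treg, and naïve T cells, and the neighbors in that order were all called. The rise from naïve T to TFH cells was 4.49 ± 0.13 (22.5-fold, adjusted p = 0.000118), with 4.29 at d12 and 4.69 at d25. From Treg to TFR cells it was 1.75 ± 0.13 (3.36-fold, adjusted p = 0.00144), with 1.80 and 1.69. Treg cells exceeded naïve T cells by 2.03 ± 0.13 (4.09-fold, adjusted p = 0.00223). TFR cells were 1.63-fold lower than TFH cells (-0.71 ± 0.13, adjusted p = 0.0215), a call that was lost under 6 of the 19 alternatives, that is without the d12 TFR, the d25 TFR, or the d25 TFH array (adjusted p = 0.135, 0.125, and 0.0915), without the day term (0.17), with slide in place of day (0.0793), and without the filter (0.0821). The 6 markers of innate lymphoid cells, which can also carry RANKL, summed to 15655 and 16238 RU in naïve T, 8517 and 14397 RU in TFH, 8926 and 10372 RU in Treg, and 12033 and 15823 RU in TFR cells, and the part of such cells in the result was not tested.

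Tnfsf14 (chr17:57329192-57329251) codes for LIGHT, which binds HVEM and the LTβ receptor. It read 573 RU at d12 and 710 RU at d25 in naïve T, 10587 and 12929 RU in TFH, 1575 and 1325 RU in Treg, and 8455 and 8013 RU in TFR cells. The follicular arrays were all above the nonfollicular arrays. The follicular rise was 4.20 ± 0.17 in Foxp3- cells (18.3-fold, adjusted p = 0.000201) and 2.51 ± 0.17 in Foxp3+ cells (5.70-fold, adjusted p = 0.00124), and both calls held under the 19 alternatives. TFR cells were not called different from TFH cells (-0.51 ± 0.17, interval -0.95 to -0.06, adjusted p = 0.101). Treg cells exceeded naïve T cells by 1.18 ± 0.17 (2.26-fold, adjusted p = 0.0199), but this call was lost under 8 alternatives, including the removal of either array of naïve T, Treg, or TFR cells (0.97 to 1.39, adjusted p = 0.0566 to 0.117).

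Tnfsf8 (chr4:63493871-63493930) codes for CD30L. It read 487 RU at d12 and 666 RU at d25 in naïve T, 2295 and 3292 RU in TFH, 575 and 529 RU in Treg, and 181 and 335 RU in TFR cells. TFH arrays were highest, TFR arrays lowest, and naïve T and Treg cells overlapped. Tnfsf8 rose by 2.27 ± 0.24 from naïve T to TFH cells (4.83-fold, adjusted p = 0.00221) and was 11.2-fold lower in TFR than in TFH cells (-3.48 ± 0.24, adjusted p = 0.00176). Naïve CD4 T and Treg cells differed by -0.05 ± 0.24 (-0.68 to 0.58, adjusted p = 0.935). The fall from Treg to TFR cells was 2.24-fold (-1.16 ± 0.24, adjusted p = 0.0202). It was larger at d12 (-1.67) than at d25 (-0.66), which was not tested, and the call was lost without the d12 Treg array (-0.79, adjusted p = 0.069), without the d12 TFR array (-0.86, adjusted p = 0.108), without the filter (0.0997), and without the day term (0.0523).

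Cd40lg (chrX:54477066-54477125) was dim. It read 100 RU at d12 and 106 RU at d25 in naïve T, 109 and 149 RU in TFH, 20 and 40 RU in Treg, and 20 and 28 RU in TFR cells. Only the d25 naïve array and both TFH arrays were well above background. Since Cd40lg was below background on all Foxp3+ arrays, the difference of TFR to TFH cells is a bound. It was at least 2.74-fold lower in TFR than in TFH cells (adjusted p = 0.0034), a value that holds for this background correction and scaling. It was also lower in Treg than in naïve T cells (adjusted p = 0.0118), but no fold is given because 1 of the 2 naïve arrays was not above background. Here a bound compares the mean of the brighter cell type with the mean of the lowest signals that counted as well above background. The call of Treg against naïve T cells was lost without the d12 naïve array (adjusted p = 0.0614) and without the filter (adjusted p = 0.0838), and with normexp background correction the fitted differences shrank from -2.44 to -0.69 and from -1.87 to -0.50. TFH and naïve T cells differed by 0.31 ± 0.22 (-0.27 to 0.88, adjusted p = 0.307).

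Tnfsf4 (chr1:163348095-163348153), which codes for OX40L, was not well above background on any of the 8 arrays and was not tested. Its probe was listed at the floor of 20 RU on 6 arrays, at 25 RU in TFH cells at d25 and at 30 RU in TFR cells at d25. These values are not levels, and no difference was detectable with this probe.

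Tnfsf10 (chr3:27238508-27238567) codes for TRAIL. It read 2487 RU at d12 and 2713 RU at d25 in naïve T, 1306 and 1719 RU in TFH, 3556 and 4254 RU in Treg, and 6125 and 7220 RU in TFR cells. The 4 cell types did not overlap, in the order TFR, Treg, naïve T, and TFH cells. Tnfsf10 was 1.73-fold lower in TFH than in naïve T cells (-0.79 ± 0.10, adjusted p = 0.00347), 1.71-fold higher in TFR than in Treg cells (0.77 ± 0.10, adjusted p = 0.0053), and 4.44-fold higher in TFR than in TFH cells (2.15 ± 0.10, adjusted p = 0.000746). These 3 calls held under the 19 alternatives. The difference of Treg to naïve T cells was 0.58 ± 0.10 (1.5-fold, adjusted p = 0.0295), and its call was lost under 9 alternatives, among them leaving out any array of naïve T, Treg, or TFR cells (0.50 to 0.67, adjusted p = 0.0866 to 0.176), dropping the day term (0.155), and slide in place of day (0.141).

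Fasl (chr1:163711056-163711115), whose product triggers apoptosis through Fas, read 1955 RU at d12 and 2596 RU at d25 in naïve T, 1988 and 1252 RU in TFH, 1340 and 1528 RU in Treg, and 786 and 1270 RU in TFR cells. The d12 and d25 arrays of TFH and of TFR cells lay far apart, so that TFH overlapped with each of the other cell types. Its SE of 0.33 was the largest among the 9 ligands. Only the difference of TFR to naïve T cells was called (-1.17 ± 0.33, 2.26-fold lower, adjusted p = 0.0363). That call was lost under 9 of the 19 alternatives, including the removal of any array of naïve T, Treg, or TFR cells (-0.82 to -1.53, adjusted p = 0.0622 to 0.197). Without the d25 TFH array, the difference of TFR to TFH cells grew from -0.66 (adjusted p = 0.223) to -1.21 and was called (adjusted p = 0.0389), and without the d12 TFH array that of TFH to naïve T cells grew from -0.51 (adjusted p = 0.26) to -1.06 (adjusted p = 0.0241).

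Set against all genes tested, the number of ligands called depended on the comparison. Of the 9 ligands, 6 were called between TFH and naïve T cells (5 higher, 1 lower), where 46.5% of all genes were called. Between TFR and Treg cells, 4 ligands were called (3 higher, 1 lower) against 39.6% of all genes. The comparison of TFR with TFH cells gave 6 ligands (2 higher, 4 lower) against 22.1%, and that of Treg with naïve T cells 6 (5 higher, 1 lower) against 9.88%. Between TFH and Treg cells, 7 ligands were called against 39.8%, and between TFR and naïve T cells 8 against 53.1%. The moderated F test over the 4 cell types called 7 ligands, all but Ltb and Fasl, against 57.7% of all genes. These comparisons share arrays, so their counts are not independent. The median absolute difference of the ligands was 0.79 between TFH and naïve T cells (all genes 0.44), 0.52 between TFR and Treg cells (0.38), 0.89 between TFR and TFH cells (0.27), and 1.14 between Treg and naïve T cells (0.21). Without the d25 TFH array, which had the most B cell marker signal, all 6 ligands called between TFH and naïve T cells were called (adjusted p = 0.00174 to 0.0244), with Tnf at 2.22, Lta at 0.53, Tnfsf8 at 2.21, Tnfsf10 at -0.89, Tnfsf11 at 4.40, and Tnfsf14 at 4.05.

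**Figure D3:**
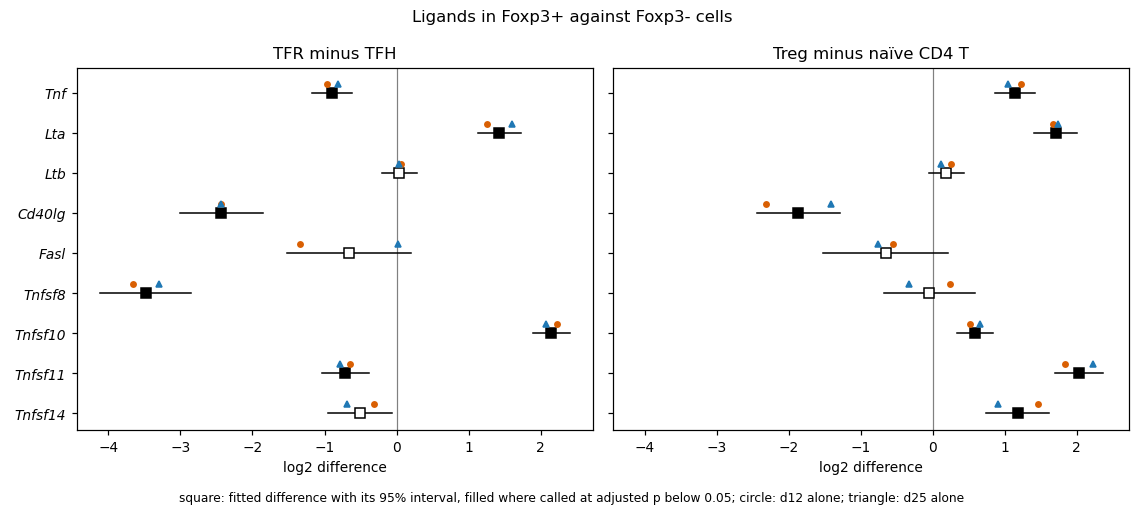
Log2 difference (x axis) of the 9 ligands tested (y axis) between TFR and TFH cells and between Treg and naïve T cells, with symbols as in the plot of follicular changes. Lta and Tnfsf10 lie right of 0 and Cd40lg left of 0 in both panels, whereas Tnf and Tnfsf11 lie left of 0 between the follicular cells and right of 0 between the nonfollicular cells.

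Whether the follicular change differed between Foxp3+ and Foxp3- cells was tested by subtracting the change from naïve T to TFH cells from the change between Treg and TFR cells. The result was called for 5 of the 9 ligands, against 8.49% of all genes. It was negative for Tnf (-2.04 ± 0.15, adjusted p = 0.00564), Tnfsf11 (-2.74 ± 0.18, adjusted p = 0.00448), Tnfsf8 (-3.43 ± 0.34, adjusted p = 0.0104), and Tnfsf14 (-1.69 ± 0.24, adjusted p = 0.0228), and positive for Tnfsf10 (1.57 ± 0.14, adjusted p = 0.00792). The first 2 of these calls held under the 19 alternatives. That of Tnfsf8 was lost without the d12 or the d25 naïve array (adjusted p = 0.0553 and 0.052) and without the filter (0.0759), and that of Tnfsf10 without the d12 Treg array or either TFR array (0.0537 to 0.0587). Tnfsf14 lost its call under 9 alternatives, among them leaving out any array other than that of TFH cells at d12 (-1.48 to -1.90, adjusted p = 0.0539 to 0.112). Lta (-0.28 ± 0.16, adjusted p = 0.353), Ltb (-0.15 ± 0.13, adjusted p = 0.56), Cd40lg (-0.57 ± 0.31, adjusted p = 0.331), and Fasl (0 ± 0.47, adjusted p = 0.997) were not called. TFH cells were sorted as GL7+ and TFR cells as GL7+ or GL7-, so Foxp3 status and the GL7 gate cannot be told apart here.

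Between d12 and d25, limma called none of the 9 ligands, against 0.0698% of all genes. At an unadjusted p below 0.05, 4 ligands differed, namely Tnf (-0.25 ± 0.08, lower at d25), Cd40lg (0.50 ± 0.16), Tnfsf10 (0.25 ± 0.07), and Tnfsf11 (0.44 ± 0.09). The share of all genes at this unadjusted level was not counted, so the 4 cannot be set against it. With an intensity trend in the variance model, Tnfsf11 was called (adjusted p = 0.0471), but this setting called 1095 of all genes in place of 11. Among the 8 ligands above background on all arrays, the ratio of d25 to d12 within a cell type ranged from 0.63 (Fasl in TFH cells) to 1.85 (Tnfsf8 in TFR cells). In 29 of 32 such ratios the change was less than 1.5-fold in either direction. The 37 pairwise calls among the cell types all had the same sign at d12 and at d25. A call averages the days, and disagreement between them widens the spread, so this agreement is no separate check.

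Over the 8 arrays, some ligands ran in parallel. Tnfsf11 and Tnfsf14 had a Pearson r of 0.97 for their log2 levels, Tnf and Tnfsf11 0.89, and Tnf and Tnfsf14 0.86, whereas Tnfsf8 and Tnfsf10 had -0.88. The 8 points are 4 cell types at 2 days and share the normalization, so these values only describe the patterns. Cd40lg was above background on 3 of the 8 arrays and Tnfsf13b in TFH and TFR cells alone, so that the values of r given for them rest in part on signals at or near the floor. The same holds for Slc43a1, which was at the floor on both naïve arrays. It also holds for Tada2b and Mccc1os, each above background on 3 of the 8 arrays. Across all genes tested with a cell type range of at least 1, those most alike were Dynlt3 (r = 0.996) and Lpxn (0.994) for Tnfsf11, Aplp1 (0.997) and the superfamily ligand gene Tnfsf13b (0.996) for Tnfsf14, Lpp (0.986) and Rnf144a (0.977) for Tnfsf8, and Ctif (0.992) and Eno3 (0.989) for Tnfsf10. For Tnf they were Myo18a (0.985) and Slc43a1 (0.983), for Lta Capn3 (0.985) and Ccdc109b (0.979), and for Cd40lg the phosphodiesterase gene Pde3b (0.985) and Rgcc (0.975). Ltb and Fasl, which varied little or irregularly, were most like Gnb5 (0.95) and Dbndd2 (0.946), and Tada2b (0.927) and Mccc1os (0.91), respectively. Pde3b, as an example, read 16152 and 22345 RU in naïve T, 21838 and 43065 RU in TFH, 1090 and 1862 RU in Treg, and 790 and 858 RU in TFR cells.

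Of 8 further ligands of the superfamily, 7 were on the array and 4 were tested. Cd70, a costimulatory ligand of CD27, read 20 RU on both naïve arrays, 174 and 384 RU in TFH, 30 and 48 RU in Treg, and 1915 and 2583 RU in TFR cells. It was below background on the naïve and Treg arrays and was at least 41.9-fold higher in TFR than in Treg cells (adjusted p = 0.000575). Tnfsf13b, which codes for the B cell survival factor BAFF, read 20 RU on both naïve arrays, 724 and 834 RU in TFH, 46 and 47 RU in Treg, and 454 and 547 RU in TFR cells, at least 13.3-fold higher in TFH than in naïve T cells (adjusted p = 8.21e-05). Tnfsf9, the 4-1BB ligand gene, was 5.60-fold higher in TFH than in naïve T cells (2.49 ± 0.20, adjusted p = 0.000943), while Tnfsf12, which codes for TWEAK, was 1.52-fold lower (-0.61 ± 0.09, adjusted p = 0.00616). Altogether, 3 of the 4 rose and 1 fell in TFH relative to naïve T cells, where 46.5% of all genes were called, and also in TFR relative to Treg cells, where 39.6% were.

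**Figure D4:**
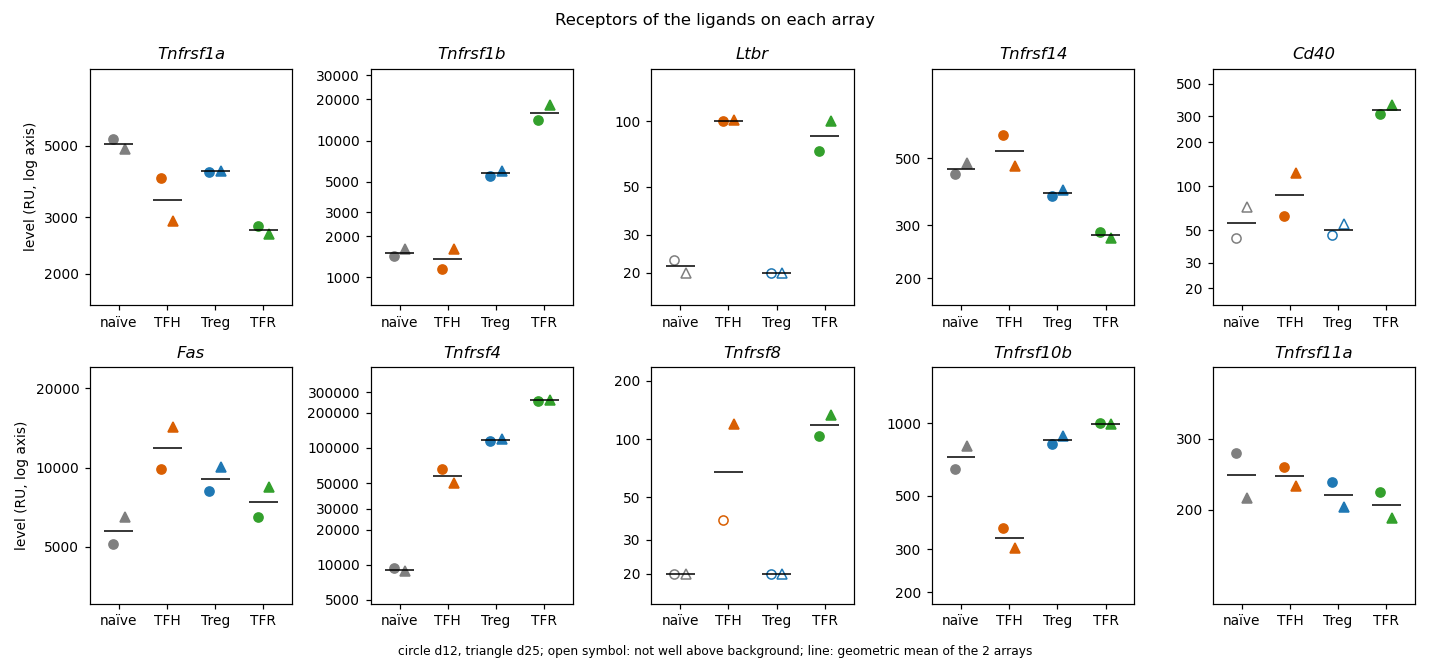
Level (y axis, RU on a log axis that differs between panels) of 10 receptors of the ligands in the 4 cell types (x axis), with symbols as in the plot of ligand levels. Tnfrsf4, Tnfrsf1b, and Cd40 are highest on both TFR arrays, Fas on the TFH arrays by mean, and Ltbr and Tnfrsf8 are open symbols in naïve T and Treg cells.

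Since T cells can also receive these signals, the 13 receptor genes of the ligands were examined, of which 12 were tested. Between TFH and naïve T cells, 4 rose and 2 fell (46.5% of all genes called), and between TFR and Treg cells 5 rose and 1 fell (39.6%). Between TFR and TFH cells 4 were higher and 2 lower (22.1%), and between Treg and naïve T cells 3 were higher (9.88%). The medians of the receptor differences were 0.29, 0.13, -0.08, and -0.04, respectively, against -0.07, -0.08, -0.02, and -0.02 for all genes. The TNF and lymphotoxin α receptor genes differed from each other. Tnfrsf1b (TNFR2) read 1425 and 1606 RU in naïve T, 1154 and 1623 RU in TFH, 5557 and 6036 RU in Treg, and 14078 and 18316 RU in TFR cells, 11.7-fold higher in TFR than in TFH cells (3.55 ± 0.12, adjusted p = 0.000518). Tnfrsf1a (TNFR1) was 1.49-fold lower in TFH than in naïve T cells (-0.57 ± 0.13, adjusted p = 0.0229) and 1.52-fold lower in TFR than in Treg cells (-0.60 ± 0.13, adjusted p = 0.0235).

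Tnfrsf4, which codes for OX40, the receptor of OX40L, was above background on all arrays. It read 9328 and 8803 RU in naïve T, 65927 and 50069 RU in TFH, 115226 and 118739 RU in Treg, and 251069 and 258473 RU in TFR cells, so that no 2 cell types overlapped. Treg cells exceeded naïve T cells 12.9-fold (3.69 ± 0.14, adjusted p = 0.000887), and TFR exceeded Treg cells 2.18-fold (1.12 ± 0.14, adjusted p = 0.00485). The receptor gene of CD40L, Cd40, was below background in naïve T and Treg cells and read 62 and 123 RU in TFH and 309 and 358 RU in TFR cells, at least 5.89-fold higher in TFR than in Treg cells (adjusted p = 0.00188). Cd40 is also a B cell gene. B220+ cells were gated out of the sorts, and the B cell markers did not move together: Cd22 was higher on the TFR arrays (3154 and 2047 RU) than on the Treg arrays of the same day (2193 and 1085 RU), whereas Cd79b was lower (4284 and 5960 RU against 7083 and 7547 RU). The sums of the 8 markers were 7723 and 8684 RU in TFR and 10062 and 9678 RU in Treg cells, and the part of B cells in the Cd40 signal was not tested. Ltbr, the LTβ receptor gene, was above background on the 4 follicular arrays alone, with 100 and 101 RU in TFH and 73 and 100 RU in TFR cells, at least 1.72-fold and 1.61-fold above naïve T and Treg cells (adjusted p = 0.000791 and 0.00177). LTβ receptor is classically found on stromal and myeloid cells. The 8 myeloid markers summed to 19271 to 28624 RU on the follicular and 19131 to 33066 RU on the nonfollicular arrays. Of these markers, Cd68 (2333 to 5098 RU, against 368 to 564 RU) and Clec7a (96 to 236 RU, against 27 to 72 RU) were higher in follicular cells. Lyz2 (379 to 1258 RU, against 205 to 449 RU) and Fcer1g (1004 to 2487 RU, against 574 to 2804 RU) overlapped. Itgam (13020 to 21184 RU, against 17088 to 28504 RU) and Csf1r (394 to 543 RU, against 496 to 681 RU) also overlapped. Cd14 and Adgre1 were not above background on any array. Of the stromal markers, Col1a1 was above background on the 4 follicular arrays alone (48 to 288 RU, against 20 to 41 RU). Pecam1 was lower on the follicular arrays (637 to 2124 RU, against 2534 to 3484 RU). Madcam1 (59 to 203 RU, against 35 to 110 RU) and Cxcl13 (31 to 246 RU, against 20 to 293 RU) overlapped. Col3a1 was above background on the d12 TFH array alone, and Pdpn on none. The part of stromal or myeloid cells in the Ltbr signal was not tested.

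For the remaining receptors, the death receptor gene Fas read 5120 and 6468 RU in naïve T, 9875 and 14303 RU in TFH, 8180 and 10100 RU in Treg, and 6487 and 8407 RU in TFR cells. It was higher in TFH than in naïve T cells (1.05 ± 0.10, 2.07-fold, adjusted p = 0.00139) and lower in TFR than in TFH cells (-0.69 ± 0.10, 1.61-fold, adjusted p = 0.0107). Tnfrsf10b, the TRAIL receptor gene, was 2.16-fold lower in TFH than in naïve T cells (-1.11 ± 0.16, adjusted p = 0.00523) and 2.97-fold higher in TFR than in TFH cells (1.57 ± 0.16, adjusted p = 0.00452), the same signs as those of its ligand gene Tnfsf10. Tnfrsf10b was not called between TFR and Treg cells (0.23 ± 0.16, adjusted p = 0.304) or between Treg and naïve T cells (0.23 ± 0.16, adjusted p = 0.413). Tnfsf10 was called higher in both of these comparisons. Tnfrsf8 (CD30) was above background on both TFR arrays (104 and 134 RU) and the d25 TFH array (119 RU), and was at least 2.22-fold higher in TFR than in Treg cells (adjusted p = 0.0116). Tnfrsf14 (HVEM) was 1.91-fold lower in TFR than in TFH cells (-0.93 ± 0.14, adjusted p = 0.0127). Tnfrsf11a (RANK), at 191 to 277 RU, was not called in any of these 4 comparisons, nor were the decoy TRAIL receptor genes Tnfrsf22 (488 to 1037 RU) and Tnfrsf23 (329 to 845 RU), and Tnfrsf11b, the gene of the decoy receptor of RANKL, was at the floor on all arrays.

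Downstream of the receptors, 14 genes of adaptors and signal proteins were tested. Between TFH and naïve T cells 3 rose and 5 fell (46.5% of all genes called), and between TFR and Treg cells 2 rose and 6 fell (39.6%), with medians of -0.05 and -0.13 against -0.07 and -0.08 for all genes. Traf2 and Tradd rose and Traf6, Ripk1, Casp8, Birc2, and Map3k14 fell in both. Casp8, the initiator caspase of death receptors, was 2.40-fold lower in TFR than in Treg cells (-1.26 ± 0.08, adjusted p = 0.000999). Map3k14, which codes for the NF-kappaB inducing kinase of the noncanonical pathway, was 2.43-fold lower (-1.28 ± 0.16, adjusted p = 0.00474), and Birc3 2.35-fold lower. Tank was 2.39-fold higher in TFH than in naïve T cells (1.26 ± 0.14, adjusted p = 0.00266), and Traf1 2.03-fold higher in TFR than in TFH cells (1.02 ± 0.10, adjusted p = 0.00389). Between TFR and TFH cells Traf1 was the only one of the 14 called (22.1% of all genes), and between Treg and naïve T cells Traf1, Casp8, and Tank were higher (9.88%).

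Membrane-bound ligands are released by proteases, and of 7 genes of ligand cleavage 4 rose in TFH relative to naïve T cells (Adam10, Rhbdf1, Sppl2b, and Furin) and 2 in TFR relative to Treg cells (Rhbdf1 and Sppl2b), with medians of 0.58 and 0.14, where 46.5% and 39.6% of all genes were called. Rhbdf1, an inactive rhomboid, was at least 3.20-fold higher in TFH than in naïve T cells (adjusted p = 0.0018), and Furin 2.17-fold (1.12 ± 0.21, adjusted p = 0.012). Adam17, the TNF converting enzyme, read 1122 to 1601 RU on the 8 arrays and was not called in any of the 4 comparisons, and limma called none of the 7 between TFR and TFH or between Treg and naïve T cells, where 1 each had an unadjusted p below 0.05. Of 8 regulators of mRNA decay, which act on the mRNA of Tnf and of other cytokines, 2 rose in TFH relative to naïve T cells (Zfp36l1 and Zc3h12a), and 1 rose and 1 fell in TFR relative to Treg cells, with medians of 0.05 and -0.01, again against 46.5% and 39.6% of all genes called. Zfp36l1 was 1.77-fold higher (0.82 ± 0.11, adjusted p = 0.00554) and Zfp36l2 1.69-fold lower in TFR than in Treg cells (-0.76 ± 0.10, adjusted p = 0.00519). Zfp36, which codes for tristetraprolin, read 254 to 587 RU and was not called in the 4 comparisons. In bulk samples such as these, fewer cells carrying an mRNA and less mRNA per cell cannot be told apart.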

How the data were processed

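RNA of sorted cells was hybridized by the authors to one-color Agilent arrays, scanned, and extracted with Feature Extraction 10.7.3.1. The spot intensities and the normalized intensities made from them were deposited. As in the methods of the study, flagged spots, spots outside 1.42 times the interquartile range of the 4 spots of a probe, and spots with a pixel coefficient of variation above 0.5 were excluded, the rest averaged by the geometric mean, quantile normalized, and scaled to a 75th percentile of 1500 with a floor of 20. Between 86.45% and 89.18% of the spots remained. The log2 values correlated with the deposited table with r = 0.9994 across probes. Quantile normalization gives all arrays 1 distribution and can shift very bright genes, and values near the floor understate differences.

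The brightest probe stood for a gene. Differences were fitted with limma 3.58.1 in R 4.3.3 (lmFit and eBayes, cell type and day as additive terms, 3 residual degrees of freedom, prior 1.89), with Benjamini-Hochberg adjustment over 15764 genes. Intervals are 95% intervals of single differences and are not adjusted. The study names a variance analysis that needs replicates per cell type and day, which do not exist here. The fit was tested on simulated data. The precision is limited by 2 arrays per cell type, whatever the number of spots.

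The ligands and the other gene lists were chosen with earlier results of these data known. All 10 ligands are described; from the other lists, the called genes with the largest differences (up to 3 rises and 3 falls per list) and the receptors of called ligands are named, and for each ligand the 2 genes with the highest r. Gene names and probe positions (NCBI37) are those of the files; the RefSeq transcripts of all 10 ligands have the same symbol in GRCm38.p6, which was used for names and promoter windows. Alternatives were the scaling, the deposited table, normexp with an offset of 50, the spot exclusion, the filter, the probe of a gene, the day and slide terms, an intensity trend, and the removal of each array. Genes on the lists but absent by name from the array (Tnfsf13 and the marker Trac) were not analysed. The values of 2 marker genes are not reported here.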

Additional observations from a re-analysis of the deposited data

Results flagged for a closer look

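For 5 ligands the follicular change differed between Foxp3+ and Foxp3- cells by a test of the difference itself (limma, Benjamini-Hochberg adjusted over all genes). On the log2 scale, the change from Treg to TFR minus that from naïve T to TFH cells was -2.04 for Tnf, -3.43 for Tnfsf8, 1.57 for Tnfsf10, -2.74 for Tnfsf11, and -1.69 for Tnfsf14. For Tnfsf8 and Tnfsf10 the 2 changes had opposite signs (2.27 against -1.16, and -0.79 against 0.77), for Tnfsf11 and Tnfsf14 they had the same sign and differed in size, and for Tnf only that of Foxp3- cells was called. The GL7 gate also differed between TFH and TFR cells and cannot be told apart from Foxp3 status.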

How the results depend on the processing

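Of the 54 comparisons of a ligand between a pair of cell types, 37 were called. Of these calls, 27 held under all alternatives run, 10 were lost under at least 1, and 0 changed direction. Where an array was left out, its cell type had 1 array, which was assumed to vary like the others. Leaving out 1 array at a time gave 5 to 6 called ligands between TFH and naïve T cells (6 with all arrays), 3 to 4 between TFR and Treg cells (4), 4 to 6 between TFR and TFH cells (6), 3 to 6 between Treg and naïve T cells (6), 6 to 8 between TFR and naïve T cells (8), and 3 to 5 for the difference of the follicular changes (5). Without the filter on dim genes, 3 ligands were called between Treg and naïve T cells and 3 for the difference of the follicular changes, with more genes to adjust over. With an intensity trend, 1 ligand was called between d12 and d25 (0 otherwise).

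The day term serves as the replicate block. Without it, the calls of Lta between TFH and naïve T cells (adjusted p = 0.0826), Tnfsf8 between TFR and Treg cells (0.0523), Tnfsf11 between TFR and TFH cells (0.17), and Tnfsf10 between Treg and naïve T cells (0.155) were lost.

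Signs changed only for differences that were not called. Without quantile normalization, Ltb became -0.64 between TFH and naïve T, -0.24 between TFR and Treg, -0.24 between Treg and naïve T, and -0.48 between TFR and naïve T cells, 0.40 for the difference of the follicular changes, and -0.22 between d25 and d12, and Fasl 0.02 for the difference of the follicular changes. With normexp that of Fasl was 0.06 and Ltb between TFH and Treg cells 0.03, or 0.00 with all spots kept. With slide in place of day, Tnfsf8 between Treg and naïve T cells was 0.01. When single arrays were left out, Fasl ranged from -1.06 to 0.04 (TFH against naïve T cells), -0.41 to 0.69 (TFH against Treg cells), -0.55 to 0.54 (difference of the follicular changes), and -0.02 to 0.43 (d25 against d12), Ltb from -0.05 to 0.14 (TFR against Treg cells), -0.01 to 0.10 (TFR against TFH cells), and -0.09 to 0.09 (TFH against Treg cells), Cd40lg from -0.60 to 0.06 (TFR against Treg cells), Tnfsf8 from -0.42 to 0.32 (Treg against naïve T cells), and Tnfsf14 from -0.01 to 0.17 (d25 against d12). The cause was not tested.

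Counts over all genes also moved. Leaving out 1 array gave as few as 4309 of 7332 called genes for TFH against naïve T cells, 2494 of 6249 for TFR against Treg, 942 of 3486 for TFR against TFH, 416 of 1557 for Treg against naïve T, 3167 of 6278 for TFH against Treg, 4660 of 8373 for TFR against naïve T cells, and 292 of 1339 for the difference of the follicular changes. Other alternatives gave as few as 3870 (no filter), 1349 (slide), 523 (slide), 3854 (slide), 5550 (slide), and 418 (no filter) for the last 6 of these in turn, and 1095 in place of 11 genes between d25 and d12 with an intensity trend. The 2 arrays per cell type and the single probe per ligand set the precision, and for Cd40lg and Tnfsf4 the signal over background does.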
